A study of Mus musculus with 7 samples.

Results

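The renin-angiotensin system was described here through 8 genes in mouse brain and kidney: Ren1, Agt, Ace, Agtr1a, Agtr2, Enpep, Mme and Atp6ap2. Its members were the Affymetrix probe sets whose only gene symbol in the platform annotation is one of these names. That rule gave 11 sense probe sets for 7 of the genes, among 18193 genes with a sense probe set, and 1 reverse probe set, of Atp6ap2, among 2915 genes with a reverse one. Ren1, which encodes renin, was given no probe set by the rule and was not analysed here.

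Total RNA of dissected whole mouse brain and whole mouse kidney was hybridised to 7 arrays, and the labels give no strain, age, sex or treatment. Brain sense signals came from a 430A and a 430B array (22626 and 22511 probe sets), and kidney sense signals from a 430 2.0 array (45037 probe sets). Brain and kidney antisense signals each came from the reverse probe sets of a U74A array (2611) and a U74B array (3041). Every design was hybridised once for a tissue. Replicate error is therefore unknown, and differences are described without a test or p-value. Both organs were rinsed in cold buffer and went straight into TRIzol. Tissue and array type cannot be told apart on the sense arrays.

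In the classical pathway, renin cuts angiotensinogen (Agt) to angiotensin I, and angiotensin-converting enzyme (Ace) trims that to angiotensin II. Angiotensin II acts through the type 1 receptor (Agtr1a), which constricts vessels and retains salt, and through the type 2 receptor (Agtr2). Aminopeptidase A (Enpep) and neprilysin (Mme) are cell-surface peptidases that convert or degrade angiotensins, and Atp6ap2, the (pro)renin receptor, is also an accessory subunit of the vacuolar proton pump. In kidney, renin is made by juxtaglomerular cells, and both peptidases sit on the proximal tubule brush border and on glomerular cells. In brain, angiotensinogen is made mainly by astrocytes.

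Signals are MAS5 intensities in arbitrary units. Values given per tissue are as deposited. For ratios, each brain array was first scaled to the kidney array, by the median log2 ratio of brightly read probe sets, which multiplied 430A brain signals and divided 430B brain signals (a log2 shift of -0.84 and 2.08 was removed). Signals under a floor, 186.4 for the 430A pair and 28.6 for the 430B pair in kidney units (104 and 121.5 in deposited brain units), were raised to it. A difference was called where the ratio reached 2-fold and either tissue exceeded the floor, and a fold is given as "at least" where the signal of the lower tissue had been raised.

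Of the 7 genes with a sense probe set, 1 was higher in brain (Agt) and 4 in kidney (Ace, Enpep, Mme and Agtr1a). Atp6ap2 was within 2-fold and Agtr2 lay below the floor in both tissues. The background over the 12984 sense genes that passed the floor was 17.8% called in brain and 27% called in kidney. These genes are not a random draw, so nothing about the system as a whole is read from its count.

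**Figure D1:**
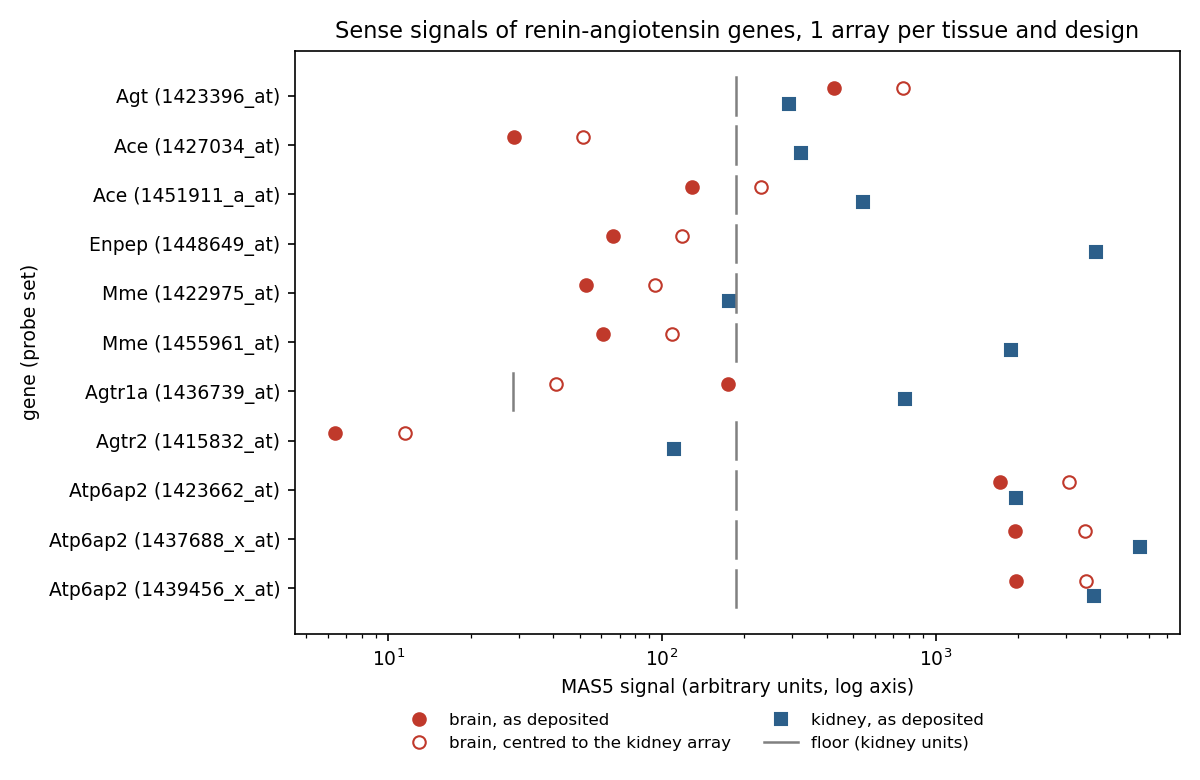
MAS5 signal (log axis) of the 11 sense probe sets in brain (circles, filled as deposited and open after scaling to the kidney array) and kidney (squares, as deposited), with the floor as a grey line. Enpep, Agtr1a and the brighter Mme probe set lie far higher in kidney, Agt is the only gene called in brain, and the 3 Atp6ap2 probe sets lie high in both tissues.

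The start regions of the members that differed between the tissues are shown first, so that the genes can be read beside their signals. They are the 100 bases before the annotated transcript start, from RefSeq on build GRCm38.p6. Agtr1a had no entry in the promoter table. The capitals mark TATAAA or its reverse complement TTTATA, the letters of a TATA box.
Agt, chr8:124569707-124569806, minus strand: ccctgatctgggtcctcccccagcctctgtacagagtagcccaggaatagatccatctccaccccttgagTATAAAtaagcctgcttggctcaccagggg
Enpep, chr3:129332750-129332849, minus strand: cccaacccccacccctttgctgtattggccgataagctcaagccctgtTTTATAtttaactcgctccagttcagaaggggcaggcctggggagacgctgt
Ace, outer start, chr11:105967848-105967947, plus strand: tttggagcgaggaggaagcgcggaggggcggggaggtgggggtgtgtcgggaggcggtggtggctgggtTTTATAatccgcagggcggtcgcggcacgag
Ace, start inside the gene, chr11:105975089-105975188, plus strand: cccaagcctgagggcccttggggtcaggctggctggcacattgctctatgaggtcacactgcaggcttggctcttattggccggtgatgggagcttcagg
Mme, outermost start, chr3:63295111-63295210, plus strand: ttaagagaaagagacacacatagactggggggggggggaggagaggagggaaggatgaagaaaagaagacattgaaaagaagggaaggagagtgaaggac
TATAAA on either strand was found in the 250 bases before the start of Agt (position -30), of Enpep (position -52) and of the outer Ace start (position -31), counting the base before the start as -1. It was in none of the 3 Mme windows, nor in the window of the inner Ace start. Among all 32851 promoter entries, 12.4% held it. Agt, higher in brain, and Enpep, higher in kidney, both held it.

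Agt, the precursor of all angiotensins, read 425.7 in brain and 291.4 in kidney on its only probe set (1423396_at). After scaling it was 2.62-fold higher in brain (log2 ratio 1.39), where 19.8% of the 13364 probe sets of the 430A pair above the floor were higher in brain. Of those probe sets, at least 12.7% had a ratio further towards brain. Its signal ranked at percentile 86.0 of the brain array and 80.3 of the larger kidney array. Among the probe sets of 430A alone, its kidney percentile was 67.3. The call rested on the scaling, since the deposited signals differed by 1.46-fold (log2 ratio 0.55). With the floor at the 75th percentile the kidney signal was raised and the log2 ratio, now a lower bound of 0.73, was not called. Under every setting tried the ratio kept its sign.

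The markers of the astrocytes known to make angiotensinogen in brain were measured on the same arrays. Of 8 astrocyte markers, 6 were higher in brain and 1, Aldh1l1, in kidney, and their summed signal was 18678 in brain (after scaling) and 3296 in kidney. In kidney the 8 read 25.8 to 1249, and the kidney signals of Gfap, Slc1a2 and S100b lay below the floor. The part of cell composition in the Agt ratio was not tested. In whole-tissue RNA, fewer cells of a type and less RNA per cell cannot be told apart, which holds for every ratio given here.

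Ace, the enzyme that makes angiotensin II and also degrades bradykinin, had a pair of 430A probe sets. Probe set 1451911_a_at read 128.3 in brain and 542.2 in kidney, 2.36-fold higher in kidney after scaling (log2 ratio -1.24). Probe set 1427034_at read 28.7 in brain and 321.9 in kidney, a difference of at least 1.73-fold, since the brain signal lay below the floor. Both readings were lower in brain.

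On 430A, 21.1% of the probe sets above the floor were higher in kidney, so a ratio of the size seen for Ace was common: at least 16.5% lay further towards kidney than its brighter probe set. The Ace call did not hold with the floor at the 75th percentile, where the brain signal was raised and the bound was -0.24 on the log2 scale. The suffix _a_at marks a set of probes that reads several transcripts of 1 gene. RefSeq places another annotated gene, Gm11651, over Ace, the only overlap among the 8 genes.

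Ace is known from endothelium, proximal tubule and choroid plexus. Of 8 endothelial markers above the floor (9 measured), none was higher in brain and 3 were higher in kidney, and the 9 summed to 1429 in brain (after scaling) and 3605 in kidney. None was at 0 in either tissue, and the list's median log2 ratio was -0.86, against -0.11 over all sense genes. Choroid plexus markers gave none in brain and 3 in kidney of 5 above the floor, and the 3 (Folr1, Kl and Aqp1) are genes that kidney also expresses. Ttr and Clic6 were read on 430B, at 12769.8 and 633.6 in brain and 3471.6 and 218.1 in kidney as deposited, and were within 2-fold after 430B brain signals were divided. Their part in the Ace ratio was not tested.

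Enpep, aminopeptidase A, which turns angiotensin II into angiotensin III, read 66.2 in brain and 3848.5 in kidney on its only probe set (1448649_at). It was at least 20.7-fold higher in kidney (log2 ratio -4.37 with the brain signal at the floor). The signal ranked at percentile 36.9 in brain and 98.7 in kidney (97.5 in kidney among the probe sets of 430A alone). It stayed at least 8.38-fold higher in kidney under every setting tried.

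Mme, neprilysin, which makes angiotensin 1-7 from angiotensin I and degrades other peptides, had a pair of 430A probe sets that read very differently in kidney. Probe set 1455961_at read 60.8 in brain and 1894.3 in kidney, a difference of at least 10.2-fold (log2 ratio -3.35). Probe set 1422975_at read 52.7 in brain and 175.7 in kidney and lay below the floor in both tissues, so no fold is given for it. Both read lower in brain, but only the first carries the call, which held at 4.13-fold or more under every setting tried.

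Both brush border peptidases are known from the proximal tubule. Of 10 proximal tubule markers, 1 (Lrp2, by a 430B probe set) was higher in brain and 9 were higher in kidney, and their median log2 ratio was -4.06. The Lrp2 call rested on 1 of its 3 probe sets, at 311.7 in brain and 28.1, below the floor, in kidney. Readings of its other probe sets are not given here, so the call may not hold for the gene. The 10 markers summed to 1179 in brain (after scaling) and 32670 in kidney. Podocyte markers gave 1 higher in brain and 1 in kidney of 4 above the floor, with sums of 1568 in brain and 2631 in kidney. Their part in the Enpep and Mme ratios was not tested.

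Agtr1a, the main type 1 receptor of rodents, was read on the 430B design only. Its probe set (1436739_at) read 173.9 in brain and 772.8 in kidney. After scaling it was 18.9-fold higher in kidney (log2 ratio -4.24), where 23.8% of 13354 430B probe sets above the floor were called in kidney (18.7% in brain) and at least 0.839% lay further towards it. The size of this ratio rested on how 430B was scaled. It was 4.44-fold with signals as deposited, 6.23-fold after matching 430B to 430A through the 98 bright probe sets printed on both brain arrays, and at least 4.15-fold with the 430A floor, under which the brain signal lay. The kidney call held under every setting tried.

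Agtr2, the type 2 receptor, which opposes many actions of the type 1 receptor and is best known from fetal tissue, read 6.4 in brain and 110.9 in kidney (1415832_at). Both lay below the floor after scaling, and under every other setting with a floor, so the difference was not called. Without a floor the log2 ratio was -3.17, towards kidney, between signals that were both low. A reading below the floor does not show that the transcript was absent.

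The type 1 receptor is carried in kidney by vascular mural cells, glomerular mesangial cells and tubules, and in the adrenal gland. Of 5 mural cell markers above the floor (8 measured), none was higher in brain and 4 (Pdgfrb, Acta2, Tagln and Rgs5) were higher in kidney. The 8 summed to 2368 in brain (after scaling) and 10059 in kidney. Gja5, a connexin of juxtaglomerular cells, read 1.6 in both tissues, below the floor. Adrenal markers gave 1 higher in brain (Chga) and none in kidney of 6 above the floor, and all 10 read between 8.8 and 74.8 in kidney. Blood cell markers gave none in brain and 1 (Pf4) in kidney of 2 above the floor.

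Atp6ap2, the (pro)renin receptor, was bright on all 3 of its 430A probe sets. Probe set 1423662_at read 1721.2 in brain and 1972.8 in kidney, 1437688_x_at read 1958.8 and 5563.9, and 1439456_x_at read 1971 and 3792.4, each time brain and then kidney. After scaling the first was 1.56-fold higher in brain, the second 1.59-fold higher in kidney and the third 1.07-fold higher in kidney, so all were within 2-fold. The log2 ratios were 0.64, -0.66 and -0.10. The first turned to -0.20 with signals as deposited, and rose to 1.13, past 2-fold towards brain, with quantile normalization. The third turned to 0.40 with quantile normalization.

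The Atp6ap2 ratios thus spanned 1.31 on the log2 scale. Among 606 genes with 3 probe sets above the floor on 430A the median span was 1.30 and 49.2% spanned more, with floored signals, where present, at the floor. The suffix _x_at marks probe sets with some probes that match other transcripts. With signals as deposited the brightest, 1437688_x_at, was 2.84-fold higher in kidney.

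**Figure D2:**
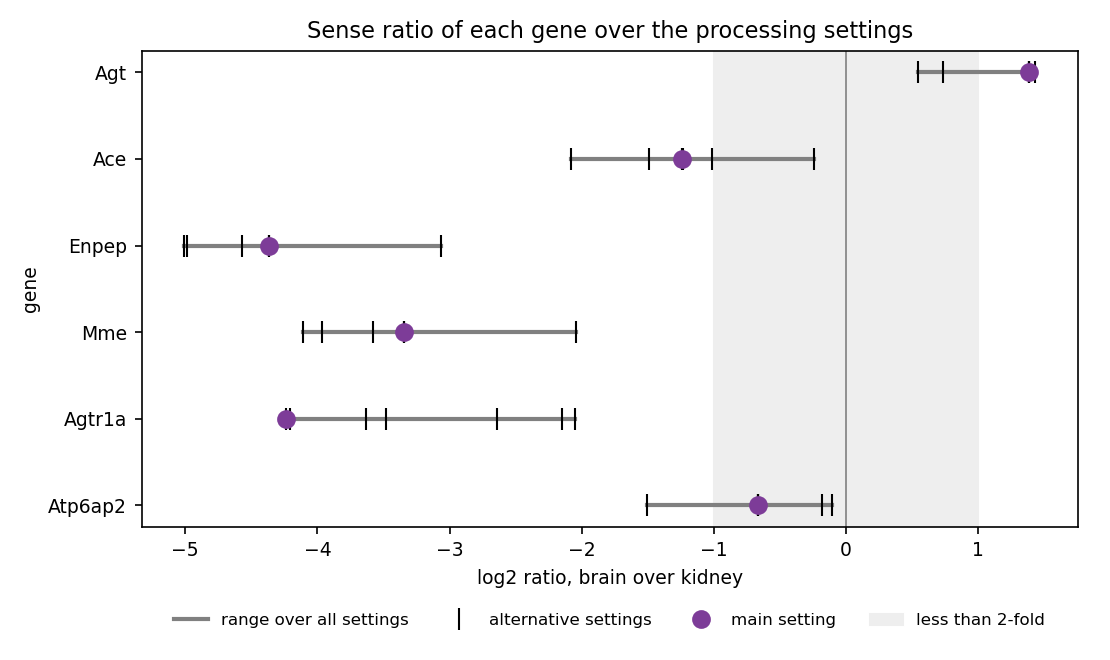
Log2 ratio (brain over kidney) of the 6 genes above the floor, each by its probe set of highest mean rank, under the main setting (purple) and the 7 alternatives (black ticks). Enpep, Mme and Agtr1a stay at least 2-fold higher in kidney throughout, while Agt and Ace enter the grey band under 2-fold in some settings (with the higher floor as lower bounds), and Atp6ap2 leaves it in 1.

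The antisense arrays held 1 reverse probe set of the system, for Atp6ap2 on U74A (95499_at). It read 13.7 in brain and 39.8 in kidney. Both lay below the floor of the antisense pair, the higher of both arrays' 75th percentiles (63.5), so no tissue difference was called. Among the 723 reverse U74A probe sets above that floor, with signals as deposited, 28.8% were higher in brain and 3.73% in kidney. With brain signals centred on kidney, the kidney reading stood at the floor of 39.8, and no difference was called. In brain, 1566 of 2611 reverse probe sets read higher. In kidney, 650 did, and the signal equalled that array's own 75th percentile of 39.8, at which 7 probe sets stood.

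Sense and antisense of Atp6ap2 were then set side by side as ranks within each array, which still carry the binding strength of each probe set. The reverse probe set stood at percentile 39.9 in brain and 74.99 in kidney. Its sense probe sets stood at 97.98 to 98.4 in brain and 96.8 to 99.4 in kidney (93.8 to 98.8 in kidney among the probe sets of 430A alone). The antisense rank was therefore below each of the sense ranks in both tissues. The reference sets differ, with reverse U74A probe sets for antisense and all probe sets of a 430 array for sense. Amounts of the strands cannot be compared from these ranks. RefSeq annotates no gene that overlaps Atp6ap2. Among the other pathway lists, 10 of 11 reverse probe sets lay below the floor in both tissues. The exception was Grk4, a receptor kinase, at 170.2 in brain and 78.1 in kidney on U74B, where 14.3% of probe sets above the floor were higher in brain. Its kidney signal lay below that pair's floor of 98.5, and the bound this left was not called.

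**Figure D3:**
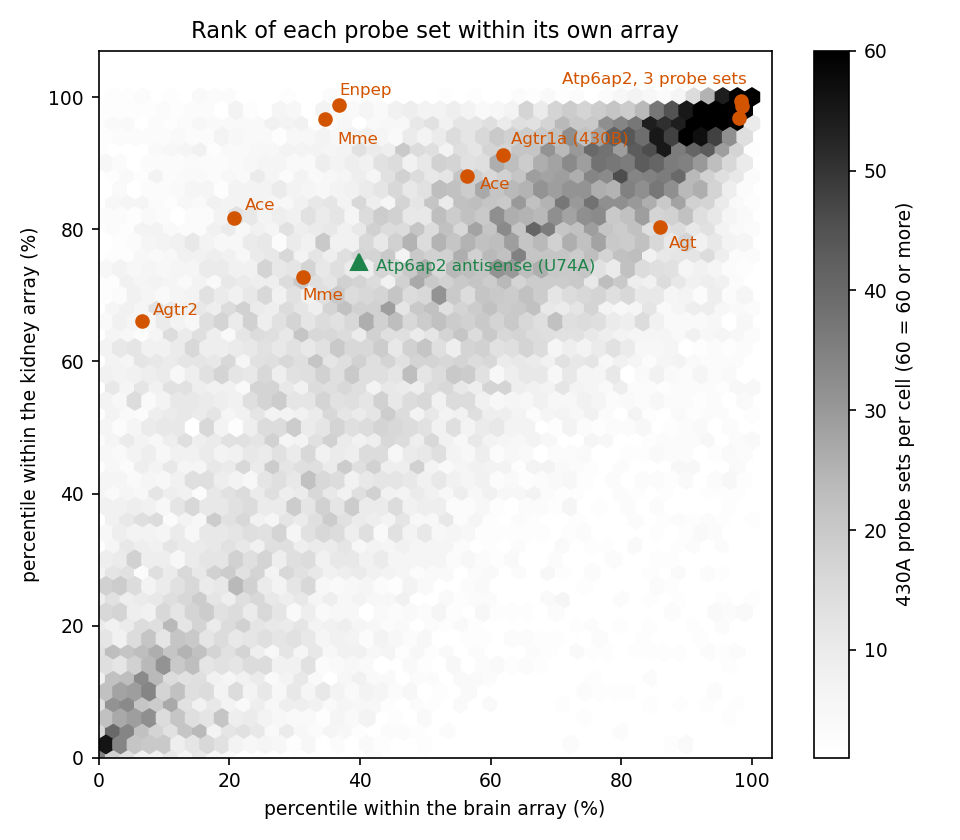
Percentile of each sense probe set of the system (orange) and of the reverse Atp6ap2 probe set (green triangle) within its brain array (x) and its kidney array (y), over the density of all 430A probe sets (grey). Enpep and the brighter Mme probe set sit high in kidney and low in brain and Atp6ap2 sits at the top of both arrays for sense only. Kidney sense percentiles are over all 45037 probe sets of the 430 2.0 array, brain ones over the 430A or 430B array.

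Other genes of the angiotensin pathway were read from a list that leaves the 8 members out. Of 16 measured of 20 listed, 11 were above the floor, with none higher in brain and 4 higher in kidney. Over all sense genes above the floor, 17.8% were called in brain and 27% in kidney. The median log2 ratio, with floored signals at the floor as in every list, was -0.69, against -0.11 over all sense genes. Collectrin (Cltrn), a partner of amino acid transporters in the proximal tubule, read 24.4 in brain and 6585.9 in kidney, a difference of at least 35.3-fold. Cathepsin A (Ctsa), a lysosomal carboxypeptidase, read 223.7 in brain and 2133.5 in kidney, 5.32-fold higher in kidney, while its 430B probe set was within 2-fold. Aminopeptidase N (Anpep), which trims angiotensin III, read 13.4 in brain and 787 in kidney, a difference of at least 4.22-fold. Under the 75th percentile floor the bound no longer reached 2-fold.

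Prolyl endopeptidase (Prep) had the smallest fold of the 4. It was higher in kidney on both its probe sets, at 104.9 in brain and 399.4 in kidney on 430A and at 194.9 and 118.4 (brain and kidney) on 430B, and the 430B ratio turned to 0.68 with signals as deposited and to 0.23 with 430B on the 430A scale, and was not called with either higher floor. Dpp3, Rnpep, Prcp and Nln, further peptidases that cut angiotensins, were within 2-fold, although Prcp was called in kidney as deposited and with quantile normalization, and Dpp3 as deposited. The receptor Mas1 read 18.1 in brain and 10 in kidney, below the floor, and the mast cell genes Cma1, Cpa3 and the neutrophil protease gene Ctsg were below it too. The second rodent type 1 receptor, Agtr1b, read 16.5 in brain and 30.6 in kidney, and only the kidney signal was above its floor, by too little for a call.

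Tissue kallikrein (Klk1), a kinin-forming protease, stood in both the angiotensin and the mineralocorticoid list and read differently by probe set. The probe set of highest mean rank, on 430B, read 712 in brain and 151.8 in kidney and was within 2-fold after scaling. The other 3, on 430A, read 12.4, 4.1 and 14.6 in brain and 6526.6, 7133.2 and 1077.4 in kidney, with lower bounds of 5.78-fold to 38.3-fold towards kidney. With the median over its probe sets Klk1 stood at a log2 ratio of -3.83, and as deposited the 430B reading was 2.23 towards brain. Kallikrein genes form a family of near-identical copies, so these readings may include relatives.

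Downstream of the type 1 receptor, angiotensin II drives release of the steroid aldosterone. Of 13 genes of the mineralocorticoid axis, none was higher in brain and 6 were higher in kidney by their representative probe sets, against 17.8% and 27% of all sense genes. Single other probe sets were called for uncalled genes besides Klk1. In brain, 1 of Tsc22d3 was 3.42-fold and 1 of Nedd4l, on 430B, 2.29-fold higher. In kidney, 1 of Wnk1 was at least 4.18-fold higher. The median log2 ratio was -0.96. Hsd11b2, the enzyme that shields the receptor from glucocorticoids, read 101.5 in brain and 1655.4 in kidney, a difference of at least 8.88-fold. The thiazide-sensitive salt cotransporter Slc12a3 was at least 7.44-fold, the potassium channel Kcnj1 at least 6.44-fold and the aldosterone-induced kinase Sgk1 4.49-fold higher in kidney, and these 4 held under every setting tried. Wnk4, a regulator of Slc12a3, and the channel subunit Scnn1g were at least 3.25-fold and at least 2.46-fold higher, but were not called with the floor at the 75th percentile.

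The mineralocorticoid receptor itself, Nr3c2, read 401.1 in brain and 155.5 in kidney on 430B. Its log2 ratio was -0.72, and it turned to 1.37, towards brain, with signals as deposited. Its sign therefore depended on the scaling. The channel subunit Scnn1a was within 2-fold. Scnn1b read 31.4 in brain, below the floor, and 361.4 in kidney, a difference of at least 1.94-fold that was not called, though 3 of the 7 other settings called it in kidney.

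Proteins that couple or curb the type 1 receptor were called at shares near those of all sense genes (17.8% in brain, 27% in kidney). Of 13 above the floor, 3 were higher in brain and 3 in kidney, and the median log2 ratio was -0.28. Rgs4, an inhibitor of Gq signalling, read 1033.8 in brain and 63.4 in kidney, a difference of at least 9.94-fold that was called in brain under every setting tried. The arrestins Arrb1 and Arrb2, which end receptor signalling, were 3.20-fold and at least 2.44-fold higher in brain, Arrb1 not as deposited and Arrb2 not with the higher floor. Rgs5, a regulator typical of pericytes and also 1 of the mural markers above, read 742.3 in brain and 2714.9 in kidney, 2.04-fold higher in kidney and under 2-fold with quantile normalization. Of its other 3 probe sets, 2 were called in kidney, and the third, at 213.6 in brain and 174 in kidney, was at least 2.05-fold higher in brain. The G protein subunits Gnaq and Gna13 were represented by 430B probe sets, whose kidney calls were lost with 430B on the 430A scale, where the log2 ratio of Gnaq was 0.39 and that of Gna13 -0.59. Of the 7 probe sets of Gna13, 1 on 430A was also called in kidney, at 233.5 in brain and 1103.5 in kidney (2.64-fold).

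The vacuolar proton pump, to which Atp6ap2 belongs, was also called at shares near the 17.8% and 27% of all sense genes. Of 19 pump genes that passed the floor, 4 were called in brain and 5 in kidney, and 10 were not called, with a median log2 ratio of 0.27 that turned to -0.57 with signals as deposited. In brain, the subunit Atp6v1g2 read 2066.2 against 50.6 in kidney, a difference of at least 19.9-fold, and Atp6v0a1 read 1678.2 against 140.5, a difference of at least 16.1-fold. Atp6v0e2 was 3.83-fold and Atp6v1b2 2.67-fold higher in brain, the last under 2-fold as deposited.

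Atp6v0d2, on 430B, read 98.7 in brain and 418.2 in kidney. After scaling the difference was at least 14.6-fold, a size that rested on how 430B was scaled. Over the other settings its log2 ratio ran from -4.11 to -1.17, the last under the 430A floor, and the kidney call held. Atp6v0e was 4.09-fold higher in kidney. Atp6v1g1 was 5.62-fold higher there by its representative probe set, while another bright one, at 951.7 in brain and 1818.7 in kidney, was within 2-fold and the third lay below the floor. Atp6v1b1 and Atp6v0a4, the isoforms of acid-secreting intercalated cells, were at least 4.59-fold and at least 2.32-fold higher there, neither of which held under the 75th percentile floor. The other accessory subunit, Atp6ap1, read 1336.3 in brain and 1951.7 in kidney, within 2-fold like Atp6ap2.

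**Figure D4:**
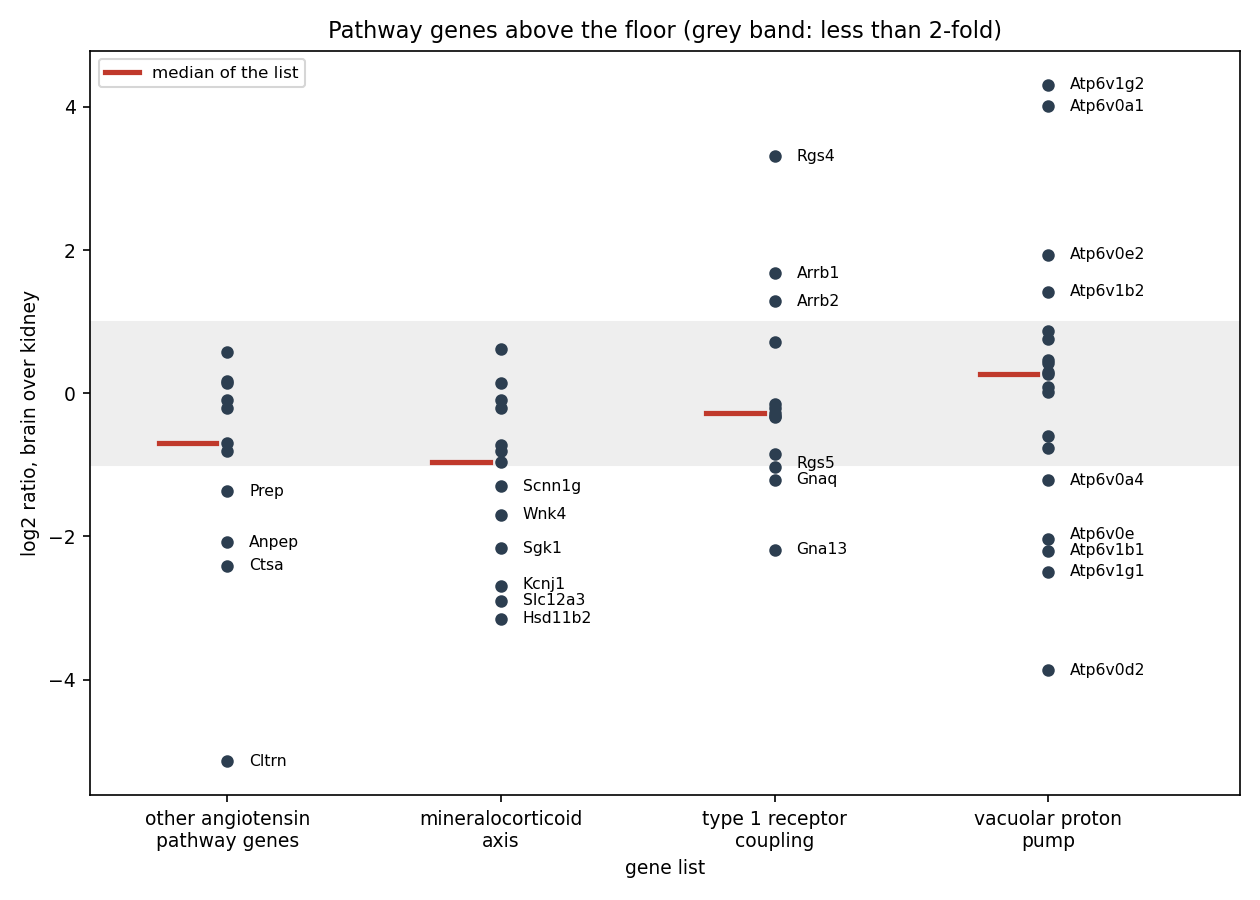
Log2 ratio (brain over kidney) of each gene above the floor in 4 pathway lists, with the median of each list in red and the genes of 2-fold or more named. The angiotensin and mineralocorticoid lists have named genes in kidney only, and the receptor coupling and proton pump lists in both directions. Over all sense genes, 17.8% were called in brain and 27% in kidney.

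By rank in the 2 tissues, the genes nearest to each member were named as a description. They were Sharpin and Btbd10 for Agt, Nt5c3 and Ints7 for Ace, Slc12a1 and Pcolce for Enpep, Acsm2 and Slc3a1 for Mme, and Arf1 and Ndufa1 for Atp6ap2, out of 10259 genes on the 430A pair. For Agtr1a they were Cmc1 and Isg20l2, out of 7927 on the 430B pair. The distances were between 0.124 and 1.84 percentile points, over 2 tissues with 1 array each.

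The preparations themselves were read through markers of neighbouring tissue. All 8 neuronal markers were higher in brain, at 0.2 to 43.3 in kidney. Higher in brain were also 4 of 5 pituitary genes above the floor, among them Gh at 5129.1 in brain and 33.8 in kidney and Prl at 4519.1 and 1.6 (brain and kidney). The loop of Henle list gave 1 in brain (Nos1) and 3 in kidney of 4 above the floor.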

How the data were processed

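Brain and kidney RNA was read on 7 arrays, 1 per tissue and design. Per the submitters' processing notes, the deposited numbers were produced by MAS5, and their range is that of a linear intensity per probe set. Per the labels, 8 micrograms (brain) or 6.75 micrograms (kidney) of RNA were labelled with biotin, and U74 probe sets were kept where Affymetrix's mask marks them as reverse. The sources used here do not give the scaling target, and no detection calls were used.

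Names came from the platform annotation that GEO holds, brought up to date in RefSeq by gene ID. Sense pairs were centred and floored at the higher median, with the floor at the higher 75th percentile for antisense, which was taken as deposited. The 100 probe sets on both brain sense arrays were taken from 430A; over the 98 bright ones, the only repeat of 1 tissue, 430B read a median of 1.33 (log2) above 430A with an SD of 0.25, a smaller gap than that between the shifts of 2.08 and -0.84 removed from the pairs. The probe set of highest mean percentile stood for a gene. The rule for names took every member, the called genes of each list and the 2 genes nearest each member in rank. It also allowed up to 3 uncalled genes per list, those of highest mean percentile. Some of these uncalled genes, such as Plcb1, Rgs2, Gna11 and Atp6v1e1, were left out. Further uncalled list genes, Grk4 and single marker genes were named after their values were seen. The members and lists were chosen with earlier results of these data known. Python 3.11.15, numpy 2.4.6 and pandas 2.3.3 were used, and the calling step was tested on simulated data. Precision is limited by the single array of each kind.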

Additional observations from a re-analysis of the deposited data

How the results depend on the processing

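Each result was recomputed under 7 other sense settings and 4 antisense ones. No called gene of the system changed sign. With signals as deposited, the log2 ratios were 0.55 (Agt), -2.08 (Ace), -2.15 (Agtr1a), -4.99 (Enpep), -3.97 (Mme) and -1.51 (Atp6ap2), with 0 members higher in brain. On 430A, 1515 probe sets were then higher in brain and 5358 in kidney, and on 430B 4863 and 432. The angiotensin list had 1 gene and the mineralocorticoid list 3 in brain, and the medians were -1.65 (mineralocorticoid), 0.090 (receptor coupling) and -0.57 (proton pump). With quantile normalization Ace was -1.49, Agtr1a -3.48 and Atp6ap2 -0.18, the mineralocorticoid median -1.37 and the pump median 0.70, and 1 coupling gene was higher in kidney. With 430B on the 430A scale Agtr1a was -2.64, 430B gave 4332 brain and 735 kidney calls, the angiotensin list 1 and the mineralocorticoid list 2 in brain, and the coupling list 1 in kidney with a median of 0.090. With the floor at the 75th percentile, where the ratios are lower bounds, Agt was 0.73, Ace -0.24, Agtr1a -3.63, Enpep -3.07 and Mme -2.05, with 0 members in brain. 430A then gave 1043 brain and 1693 kidney calls and 430B 910 brain calls, with 2 angiotensin and 3 pump genes in kidney. Without a floor Enpep was -5.01, Mme -4.11 and antisense Atp6ap2 -1.47, brain calls were 4420 (430A) and 4509 (430B), the medians were -1.35 (angiotensin) and -2.16 (mineralocorticoid), and 5 coupling genes were higher in kidney. With the 430A floor for 430B Agtr1a was -2.05 (a bound), 430B gave 207 brain and 957 kidney calls and the mineralocorticoid median was -1.50. Taking the median over each gene's probe sets, Atp6ap2 was -0.10, the mineralocorticoid median -1.30, and 1 coupling gene was higher in kidney. The median of all genes was 0.31 with 430B on the 430A scale, against -0.11. Beyond the construction of each setting, the cause of these shifts was not tested. No paired analysis was possible because each tissue has 1 array per design. Signals below the floors, such as those of Agtr2, cannot be ranked between tissues.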
